A study of Mus musculus with 30 samples.

Results

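The transcripts described here were those of the IGF-binding protein genes and their ligands in brain endothelial cells (ECs): Igfbp2, Igfbp3, Igfbp4, Igfbp5, Igfbp6 and Igfbp7, with Igf1 and Igf2. They were chosen by name, as 8 of the 21820 protein-coding genes analysed, and each was measured as the sum over its transcripts in 14 RNA-seq libraries. Accessible chromatin around the same genes was read from 10 ATAC-seq libraries. The samples came from adult male mice. In 2 libraries, GFP-positive cells had been sorted from freshly dissociated brains of Tie2-GFP mice, in which GFP marks ECs (acutely isolated ECs). Another 2 libraries came from GFP-negative cells sorted from such brains. WT cultures (6 libraries) and beta-catenin stabilized cultures (4 libraries) were brain ECs grown for 8 days after puromycin selection, which spares cells with the efflux pump P-glycoprotein. The WT cultures came from C57BL/6J mice (replicates 1 and 2, isolation method A, papain digestion) or from Ctnnb1flex3/+;Tie2-GFP mice without Cre that had received 4-hydroxytamoxifen as pups (replicates 3 to 6, isolation method B, homogenization and collagenase). The sources used here do not say plainly whether the C57BL/6J mice received it too. The assignment of isolation methods follows the methods text of the study. A figure legend there instead gives method B only to the 2 WT RNA-seq libraries from another facility, and method A to the other 4. The stabilized cultures came from Ctnnb1flex3/+;Pdgfb-CreER;Tie2-GFP mice given the same 4-hydroxytamoxifen treatment, in which CreER driven by Pdgfb in ECs removes the exon that marks beta-catenin for degradation, a deletion that was not checked here (replicates 1 and 2 by method A, replicates 3 and 4 by method B). Each culture pooled the brains of several mice, and each pair of replicates was 2 wells of 1 experiment, so that the spread within a pair is between wells and p-values over wells may measure technical spread in part.

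IGF-binding proteins are secreted proteins that bind the insulin-like growth factors, carry them in blood and tissue fluid, and either keep them from or release them to the IGF receptor. Igfbp3 is the main carrier in blood, and Igfbp7, which binds the growth factors only weakly, is deposited in vascular basement membranes and is abundant in brain vessels. In the brain, Igf2 and Igfbp2 are known products of the choroid plexus and the leptomeninges. The culture medium of all cultured ECs contained serum, hydrocortisone, VEGF, EGF, FGF and R3-IGF-1, an engineered form of Igf1 that binds poorly to the binding proteins.

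The libraries held between 24284843 and 94686456 estimated counts. Mitochondrial transcripts took 10.6% to 24.2% of the counts in the 4 sorted libraries and 0.667% to 2.58% in the cultures. The acutely isolated libraries were single-end reads of 75 cycles and the cultures were paired-end reads of 36 cycles (150 cycles, from another facility, for WT replicates 3 and 4), so that library format and culture cannot be told apart. The summed level of 8 endothelial markers was 9.42 to 17.4 TPM, a transcript level scaled by length and library size, in GFP-negative cells, 2911 to 3089 TPM in acutely isolated ECs, 1917 to 5240 TPM in WT cultures and 2129 to 6563 TPM in stabilized cultures, and no marker of the list was at 0 in any group. The 8 pericyte markers summed to 517 to 537 TPM in acutely isolated ECs and to 4.59 to 10.8 TPM in WT cultures, and the 4 smooth muscle markers to 214 to 233 TPM against 501 to 3068 TPM. Erythrocyte markers summed to 4751 and 31511 TPM in acutely isolated ECs and to at most 1.39 TPM in cultures. In such bulk samples, fewer cells of a type and less RNA per cell cannot be told apart.

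Igfbp7 was the most abundant member in every library. In acutely isolated ECs its level was 862 and 936 TPM. In GFP-negative cells it was 424 and 389 TPM. In WT cultures its lowest level was 889 TPM, its median 2106 TPM and its highest 2600.4 TPM, and in the 4 stabilized cultures it was 2826, 3025, 1042 and 956 TPM. The sorted ECs and the GFP-negative cells did not overlap, and of the WT cultures the 4 wells of method A and of 150 cycles stood far above the acutely isolated ECs, whereas replicates 5 and 6 (889 and 930.0 TPM) lay beside them.

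The makeup of the binding protein transcripts differed between acutely isolated and cultured ECs. Taking the 6 binding proteins together, Igfbp7 made up 96.0% and 96.7% of their summed TPM in acutely isolated ECs, and Igfbp3 3.04% and 0.723%. In WT cultures the share of Igfbp7 was 61.3% to 87.5% and that of Igfbp3 12.1% to 37.1%. In stabilized cultures the shares were 69.7% to 84.9% and 14.6% to 29.4%. The cultured and the acutely isolated ECs did not overlap in either share, and the other 4 binding proteins stayed minor components of both. GFP-negative cells had another makeup, with Igfbp2 at 3.44% and 11.4% and Igfbp4 at 7.10% and 4.23% of the sum. The summed level itself was 898 and 968 TPM in acutely isolated ECs and 1016 to 3685 TPM in WT cultures.

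**Figure D1:**
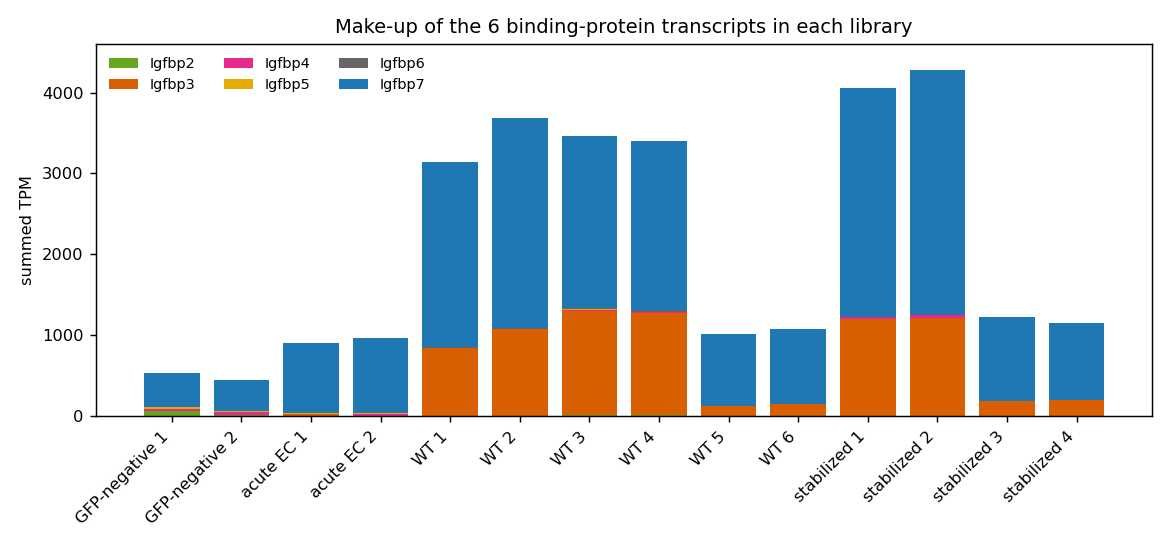
Summed level in TPM of the 6 binding protein transcripts in each of the 14 RNA-seq libraries, with each bar divided by gene. Igfbp7 fills 96.0% and 96.7% of the bars of acutely isolated ECs, and Igfbp3 takes 12.1% to 37.1% of the WT culture bars.

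The comparison of acutely isolated ECs with GFP-negative cells asked which members were enriched in brain ECs in vivo. A gene was called when edgeR's quasi-likelihood test gave a Benjamini-Hochberg adjusted p under 0.05 over all genes tested, when its log2 fold change exceeded 1 in either direction, and when its TPM was at least 5 in every library of the higher group. Of the 8 members, 1 was called higher in ECs (Igfbp7) and 1 lower (Igfbp2), beside 8.3% of 15101 genes tested that were called higher and 7.56% called lower. Over all genes 1253 calls were higher and 1142 lower, and scaling by library size in place of TMM gave 930 and 1419. The median log2 fold change of the 8 members was -2.47, against -0.06 over all genes.

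Igfbp7 counts in ECs exceeded those in GFP-negative cells by a log2 fold change of 1.46 (SE 0.33, edgeR adjusted p = 0.0219). This call was lost without GFP-negative replicate 1 (adjusted p = 0.0584), without GFP-negative replicate 2 (0.113), without acute replicate 1 (0.0707) and when transcript length was entered as an offset (0.0938), at log2 fold changes between 1.14 and 1.62. Igfbp2, a binding protein with a preference for Igf2, was at 60.9 and 15.5 TPM in GFP-negative cells and at 0.0857 and 0 TPM in ECs. The groups did not overlap, and in the fit on counts Igfbp2 fell by 9.26 on the log2 scale from GFP-negative cells to ECs (SE 1.58, edgeR adjusted p = 0.00963), with a value from -14.56 to -7.67 when each library was left out in turn. The 2 GFP-negative libraries differed in choroid plexus transcripts as they did in Igfbp2. The 4 choroid plexus markers summed to 3091 TPM in replicate 1 and to 479 TPM in replicate 2, with Ttr at 2978 and 462 TPM, and the part of these cells in the Igfbp2 level was not tested.

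Igf2 followed the same order of libraries, at 105 and 44.8 TPM in GFP-negative cells and 8.00 and 3.31 TPM in ECs. Its log2 fold change was -2.78 (SE 0.86, edgeR adjusted p = 0.0546), which missed the threshold. In the GFP-negative libraries 78.1 and 34.3 TPM of Igf2 were assigned to a processed transcript without a coding sequence, Igf2-208, and in the ECs 6.41 and 2.83 TPM were assigned to the coding transcript Igf2-202. Thus the coding transcripts made up 25.7% and 23.4% of Igf2 TPM in GFP-negative cells and 91.8% and all of it in the 2 EC libraries.

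Igfbp3 was at 3.56 and 0.843 TPM in GFP-negative cells and at 27.3 and 7.0 TPM in ECs. All values in ECs were above those in GFP-negative cells, but at a log2 fold change of 3.22 (SE 1.13) the adjusted p was 0.0802 by edgeR. Igfbp6, a binding protein with high preference for Igf2, had no count in either EC library and 95 and 129 counts (1.12 and 2.39 TPM) in GFP-negative cells. Setting 3 counts over both EC libraries as the limit that a count of 0 allows, Igfbp6 was at least 71.4-fold higher in GFP-negative cells relative to library size. It passed the test (edgeR adjusted p = 0.0157) and was not called because its TPM was under 5. Without the TPM minimum 3 of the 8 members passed between the sorted populations, with Igfbp7 higher in ECs and Igfbp2 and Igfbp6 lower, beside 9.92% of genes that were higher and 19.7% that were lower by that rule.

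Igfbp4, Igfbp5 and Igf1 did not pass the test between the sorted populations. Igfbp5, a binding protein that also binds extracellular matrix, was at 21.1 and 11.5 TPM in GFP-negative cells and at 4.68 and 0.381 TPM in ECs (log2 fold change -2.15, SE 1.20, edgeR adjusted p = 0.232). Of the 4.68 TPM in EC replicate 1, 4.48 were assigned to the processed transcript Igfbp5-202. Igfbp4, which inhibits Igf action and is cleaved by the protease Pappa, was at 22.6 and 32.0 TPM in GFP-negative cells and at 3.97 and 24.8 TPM in ECs. The 2 EC libraries had nearly equal Igfbp4 counts, 2959 and 3194, but in replicate 2 the processed transcript Igfbp4-203 took 17.3 of the 24.8 TPM, whereas in replicate 1 all of the level was in the coding transcript Igfbp4-201. Its TPM in ECs therefore depended on how reads were assigned to transcripts, and on counts the log2 fold change was -0.47 (SE 0.37, adjusted p = 0.385). Igf1 was at 2.34 and 2.39 TPM in GFP-negative cells and at 0.276 and 0 TPM in ECs (adjusted p = 0.16).

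**Figure D2:**
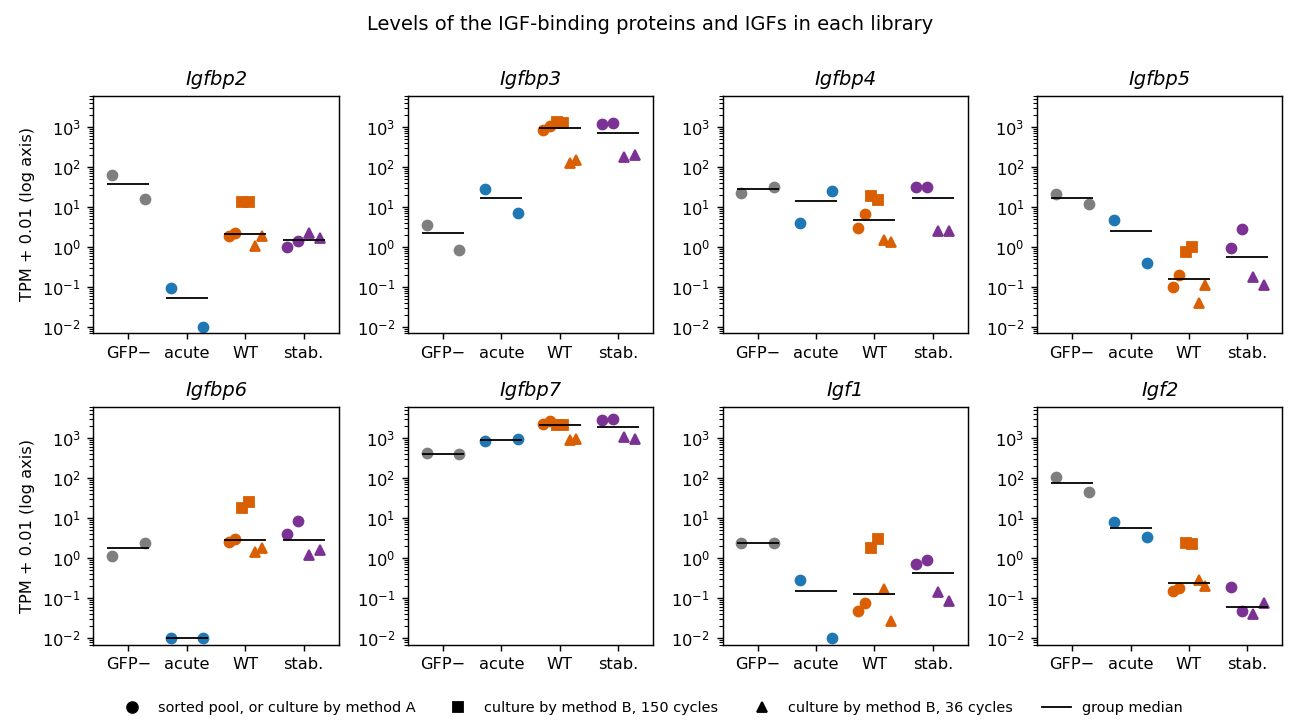
Level of each of the 8 members in every RNA-seq library by group, on a log axis of TPM + 0.01, with the group median as a bar. Circles are sorted cells or method A wells, squares method B wells of 150 cycles and triangles method B wells of 36 cycles. Igfbp3 lies at 7.0 and 27.3 TPM in acutely isolated ECs and at 123 to 1285 TPM in WT cultures.

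The comparison of WT cultures with acutely isolated ECs asked what 8 days of culture did to the members. Of the 8, Igfbp3 alone was called higher and none was called lower, beside 13.5% of 13785 genes called higher and 10.2% called lower. The median log2 fold change of the members was 0.60 and that of all genes 0.10. The DESeq2 fit also called 1 member.

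Igfbp3 rose from 27.3 and 7.0 TPM in acutely isolated ECs to 843 and 1073 TPM in WT replicates 1 and 2, 1285 and 1259 TPM in replicates 3 and 4, and 123 and 145 TPM in replicates 5 and 6. Every cultured well was above both acutely isolated libraries, and the wells of method B and 36 cycles, replicates 5 and 6, lay far below the other 4. On counts the log2 fold change was 4.63 (SE 1.16, 95% confidence interval 2.01 to 7.24, edgeR adjusted p = 0.0112). Against the same acute libraries it was 5.27 (adjusted p = 0.0143) with method A only, 4.86 (0.0137) with the wells of 150 cycles only and 2.72 (0.0635) with the method B wells of 36 cycles only. Leaving out acute replicate 2, the library with the lower Igfbp3 level, gave 3.85 and an adjusted p of 0.0698, and leaving out acute replicate 1 gave 6.41 (0.0246). Nearly all of the level came from the coding transcript Igfbp3-201, and a second coding transcript, Igfbp3-202, added 5.06 to 49.4 TPM in the WT cultures and none in the sorted cells.

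The Igfbp3 gene lies on chr11:7206086-7213923 (GRCm38, minus strand). The 250 bases before its start in RefSeq, chr11:7213924-7214173, are printed because this gene was the member called in culture and its start site lay in open chromatin in all 10 ATAC-seq libraries. They read 5′ to 3′ on the minus strand, with a match to the ETS core motif (CCGGAA on either strand, in 12.2% of 27025 promoters of this length) in capitals.
Igfbp3: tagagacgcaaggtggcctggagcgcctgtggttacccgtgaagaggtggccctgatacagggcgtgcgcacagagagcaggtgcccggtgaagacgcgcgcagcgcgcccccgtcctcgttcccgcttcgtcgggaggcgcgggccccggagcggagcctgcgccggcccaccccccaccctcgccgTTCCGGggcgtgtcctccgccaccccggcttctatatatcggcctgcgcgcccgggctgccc

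Igfbp7 did not pass the test of culture against acute isolation. The log2 fold change was 0.46 (SE 0.51, edgeR adjusted p = 0.481, 95% confidence interval -0.68 to 1.60). It was 1.16 (adjusted p = 0.0185) with method A only and called there, and -0.09 and -0.06 with the method B wells of 150 and of 36 cycles. Thus on counts the difference was called in 1 experiment and was near 0 in the others. For the wells of 150 cycles the scales disagreed, since their TPM lay above that of the acutely isolated ECs and their count difference did not. Its gene lies on chr5:77349240-77408041 (GRCm38, minus strand), and the 250 bases before its RefSeq start, chr5:77408046-77408295, are printed as the promoter of the member with the highest level and the strongest start site signal of the 8 in acutely isolated ECs. The capitals mark matches to the GC box (GGGCGG on either strand, found in 32.9% of promoters of this length), of which this window held 4.
Igfbp7: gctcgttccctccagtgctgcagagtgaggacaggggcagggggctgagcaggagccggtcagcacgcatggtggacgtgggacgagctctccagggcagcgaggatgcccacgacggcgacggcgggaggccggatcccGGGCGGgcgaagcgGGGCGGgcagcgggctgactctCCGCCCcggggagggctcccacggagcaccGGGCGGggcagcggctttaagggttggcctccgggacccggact

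Igfbp2 and Igfbp6 were near or at 0 in acutely isolated ECs and detected in every culture. Igfbp2 was at 1.04 TPM in the lowest WT well, 2.08 TPM at the median and 13.3 TPM in the highest. Igfbp6 was at 1.45 TPM in the lowest, 2.77 TPM at the median and 25.1 TPM in the highest. For both genes no culture overlapped the acutely isolated ECs, and the 2 wells of 150 cycles, WT replicates 3 and 4, were the highest. Both passed the test, Igfbp2 at a log2 fold change of 5.42 (SE 1.25, edgeR adjusted p = 0.00788) and Igfbp6 at an adjusted p of 0.00142 and at least 174-fold higher, relative to library size, than the 3-count limit. Neither reached a TPM of 5 in every WT well, so neither was called. In the same 2 wells the 6 fibroblast markers summed to 32.6 and 33.4 TPM, against 5.03 to 16.7 TPM in the other 4 WT wells and 12.5 and 8.00 TPM in acutely isolated ECs, and no marker of this list except Dpt was at 0 in WT cultures. Col1a1 (20.8 and 17.5 TPM) and Col1a2 (10.9 and 14.97 TPM) made up most of the sum in the 2 wells. Dcn, at 0.680 and 0.615 TPM, and Pdgfra, at 0.163 and 0.191 TPM, lay there within the range of the other WT wells. The part of fibroblasts in the Igfbp2 and Igfbp6 levels was not tested.

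Igfbp4, Igfbp5 and Igf2 had lower counts in culture than in acutely isolated ECs. Igf2 was at 0.139 TPM in the lowest WT well, 0.233 TPM at the median and 2.40 TPM in the highest, below both acutely isolated libraries. Its log2 fold change was -5.66 (SE 0.49, edgeR adjusted p = 0.000104), and without acute replicate 2, its lower acute library, it was called at -6.32 (adjusted p = 0.000195). Igfbp5 was at 0.0291, 0.145 and 0.962 TPM by the same measures, which overlapped the 0.381 TPM of acute replicate 2, at a log2 fold change of -4.86 (SE 0.96, edgeR adjusted p = 0.00382). Without acute replicate 1, the library with 4878 of the 5068 acute counts, its adjusted p was 0.288. Igfbp4 was at 1.34, 4.75 and 18.3 TPM and overlapped acute replicate 1 in TPM, with a log2 fold change on counts of -2.33 (SE 0.66, adjusted p = 0.0184) that became -1.71 (0.0745) with the length offset. None of the 3 was called, since none reached a TPM of 5 in both acute libraries. Igf2 and Igfbp5 were higher in both GFP-negative libraries than in acutely isolated ECs. Astrocyte markers summed to 75.9 to 465.6 TPM in acutely isolated ECs and 3.36 to 45.8 TPM in WT cultures. Neuron markers summed to 16.9 to 36.5 against 2.37 to 8.29 TPM, and oligodendrocyte markers to 28.3 to 30.5 against 0.200 to 1.27 TPM. Pericyte markers summed to 517 to 537 against 4.59 to 10.8 TPM, and choroid plexus markers to 2.91 to 18.6 against 0.0611 to 0.224 TPM. Smooth muscle markers went the other way. The ranges overlapped for fibroblast markers, at 8.00 to 12.5 against 5.03 to 33.4 TPM, and for microglia and macrophage markers, at 0.611 to 3.90 against 0.142 to 4.97 TPM. The part of such cells in the acute levels of the 3 genes was not tested. Without the TPM minimum 6 of the 8 members passed in culture against acute isolation, 3 in each direction, beside 22.9% of genes that were higher and 20.5% that were lower by that rule. Igf1 was close to 0 in most ECs, with 99 and 0 counts in the acute libraries and 5 to 160 counts in the WT wells, and its log2 fold change of 0.74 (SE 1.79, adjusted p = 0.754) changed sign between experiments.

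**Figure D3:**
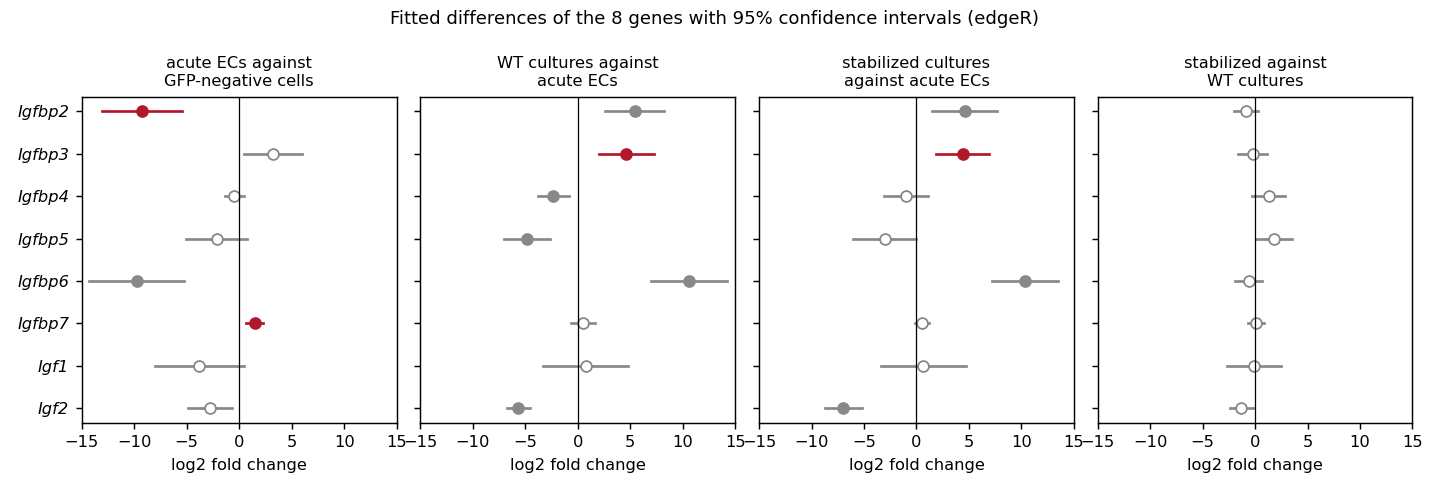
Log2 fold change of each member in 4 comparisons, fitted on counts with edgeR, with 95% confidence intervals as horizontal bars. Filled points have an adjusted p under 0.05 and red points are called. Igfbp3 is the called member in WT cultures (4.63) and in stabilized cultures (4.41) against acutely isolated ECs, and no member is filled for stabilized against WT cultures.

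The stabilized cultures gave a further comparison with the same 2 acutely isolated libraries, so its values are set beside those of the WT cultures and are no independent check of them. Igfbp3 was at 1193 and 1212 TPM in the method A wells and at 180 and 194 TPM in the method B wells. It was again the only member called, beside 15.1% of 13889 genes called higher and 11% called lower. The log2 fold change was 4.41 (SE 1.05, edgeR adjusted p = 0.0114), against 4.63 for the WT cultures. With the method B wells only, it was 3.27 and missed the threshold (adjusted p = 0.051). Igf2 was at 0.0315 to 0.176 TPM, with 3 of the 4 wells below the WT range, at a log2 fold change of -6.97 (adjusted p = 0.000583) and no call for want of TPM in acute replicate 2. Igfbp2 (4.58, adjusted p = 0.0219) and Igfbp6 (at least 117-fold higher than the limit, adjusted p = 0.00149) passed the test without reaching the TPM minimum. Igfbp4 (-1.03, adjusted p = 0.345), Igfbp5 (-3.02, 0.0794), Igfbp7 (0.53, 0.155) and Igf1 (0.67, 0.753) did not pass it. Without the TPM minimum 4 of the 8 members passed, with Igfbp2, Igfbp3 and Igfbp6 higher and Igf2 lower, beside 24.5% of genes that were higher and 23.1% that were lower.

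The comparison of stabilized with WT cultures asked whether beta-catenin stabilization moved the members in culture. With all wells, no member was called, beside 0% of 12959 genes called in either direction by edgeR. At an unadjusted p under 0.05 there were 1344 genes, 2 of them members, and DESeq2 called 14 genes higher and 3 lower, none of them a member. The members at an unadjusted p under 0.05 were Igf2 (log2 fold change -1.31, 95% confidence interval -2.39 to -0.23, adjusted p = 0.443) and Igfbp5 (1.83, 0.09 to 3.56, adjusted p = 0.466). For Igfbp3 the log2 difference was -0.23 with an interval of -1.60 to 1.15, and for Igfbp7 0.07 with an interval of -0.71 to 0.84. Within each genotype the experiments differed in Igfbp3. The mean of the method A wells was 7.16 times that of the method B wells of 36 cycles in WT cultures and 6.43 times in stabilized cultures. Cell type markers differed between the same wells. The endothelial markers summed to 4205 and 5240 TPM in method A against 1917 and 2082 TPM in method B of 36 cycles in WT cultures, and to 6557 and 6563 against 2217 and 2129 TPM in stabilized cultures. The smooth muscle markers went the other way, at 561 and 501 against 3049 and 3068 TPM in WT and 461 and 557 against 2561 and 2257 TPM in stabilized cultures. The part of these differences in the Igfbp3 level was not tested.

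Within an isolation method the spread between wells was smaller. There each genotype was 2 wells of 1 experiment, so the p-values measure spread between wells only. Genotype and culture preparation cannot be told apart in these fits. Igfbp4 was at 3.0 and 6.50 TPM in the WT wells of method A and at 31.6 and 30.7 TPM in the stabilized wells. The log2 fold change of 1.85 (SE 0.21, edgeR adjusted p = 0.00111) was called, the only call among the members within method A, beside 5.39% of 12849 genes called higher and 0.918% called lower. With the method B wells of 36 cycles Igfbp4 was at 1.44 and 1.34 TPM in WT and 2.45 and 2.47 TPM in stabilized wells, and its log2 fold change of 1.18 (SE 0.12, adjusted p = 0.00175) passed the test below the TPM minimum. No member was called within method B, beside 1.08% of 12836 genes called higher and 0.288% called lower. Among the wells of 36 cycles, the stabilized wells were thus above the WT wells in Igfbp4 in both methods. The test of the difference between methods gave an edgeR adjusted p of 0.0981 (log2 difference -0.65, SE 0.30). The WT wells of method B and 150 cycles, at 18.3 and 15.2 TPM, lay above the stabilized wells of method B. The fibroblast markers summed to 9.95 and 16.7 TPM in the WT and 22.1 and 55.2 TPM in the stabilized wells of method A, and to 8.24 and 5.03 against 5.20 and 4.98 TPM in method B, and their part in the Igfbp4 level was not tested.

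Igfbp3 passed the test in opposite directions in the 2 methods, below the fold threshold in each. It was lower in stabilized wells of method A by a log2 value of -0.26 (SE 0.08, edgeR adjusted p = 0.033). In those of method B it was higher than in the WT wells of 36 cycles by 0.59 (SE 0.09, edgeR adjusted p = 0.00508). In TPM the method A wells were 843 and 1073 in WT against 1193 and 1212 in stabilized cultures, so that for Igfbp3 the TPM and the count scales differed in direction. The test of the interaction of stabilization with method found 4 members at an adjusted p under 0.05 (Igf1, Igfbp2, Igfbp3 and Igfbp7), beside 49.6% of 13357 genes. These tests too had 2 wells of 1 experiment per genotype and method, so their p-values measure spread between wells only. In method A the controls were C57BL/6J mice, and there the strain and the stabilized allele cannot be told apart.

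The receptors were listed as the partners of the ligands. Igf1r, the tyrosine kinase receptor of both growth factors, was at 147 and 134 TPM in acutely isolated ECs and at 9.21 and 10.2 TPM in GFP-negative cells. It was called higher in ECs (log2 fold change 3.76, SE 0.36, edgeR adjusted p = 0.00197). In WT cultures its lowest level was 9.25 TPM, its median 15.4 TPM and its highest 36.2 TPM, all below the acutely isolated ECs, and it fell by 3.86 on the log2 scale (SE 0.71, edgeR adjusted p = 0.00274). The direction was the same in each of the 3 experiments, at -4.43 with method A, -5.52 with 150 cycles and -2.85 with method B of 36 cycles. Insr, the insulin receptor, was at 27.5 and 30.6 TPM in acutely isolated ECs, 5.55 and 7.22 TPM in GFP-negative cells and 13.7 to 19.6 TPM in WT cultures. In stabilized cultures Insr was at 40.4 and 48.0 TPM in the method A wells and at 15.8 and 16.5 TPM in those of method B. On counts it was called lower there than in acutely isolated ECs (-1.52, SE 0.25, edgeR adjusted p = 0.00275). The method A wells nevertheless lay above the acutely isolated ECs in TPM, so that the scales disagreed for Insr. It was called higher in ECs (2.60, SE 0.36, adjusted p = 0.00497) and lower in WT cultures than in acutely isolated ECs (-2.56, SE 0.59, adjusted p = 0.0079), and the second call was lost without acute replicate 1 (-2.25, adjusted p = 0.0565).

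Igf2r, which takes up Igf2 for degradation and sorts lysosomal enzymes, was at 2.89 and 2.65 TPM in acutely isolated ECs. In WT cultures it was at 27.2 and 36.3 TPM in replicates 1 and 2, 5.13 and 4.58 TPM in replicates 3 and 4, and 22.5 and 21.4 TPM in replicates 5 and 6. All were above the acutely isolated ECs in TPM, but the log2 fold change on counts was 1.96 (SE 1.11, edgeR adjusted p = 0.178) and was -1.17 with the wells of 150 cycles only. In stabilized cultures Igf2r reached 58.9, 66.5, 22.8 and 20.5 TPM and was called higher than in acutely isolated ECs (2.64, SE 0.34, adjusted p = 0.00108).

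**Figure D4:**
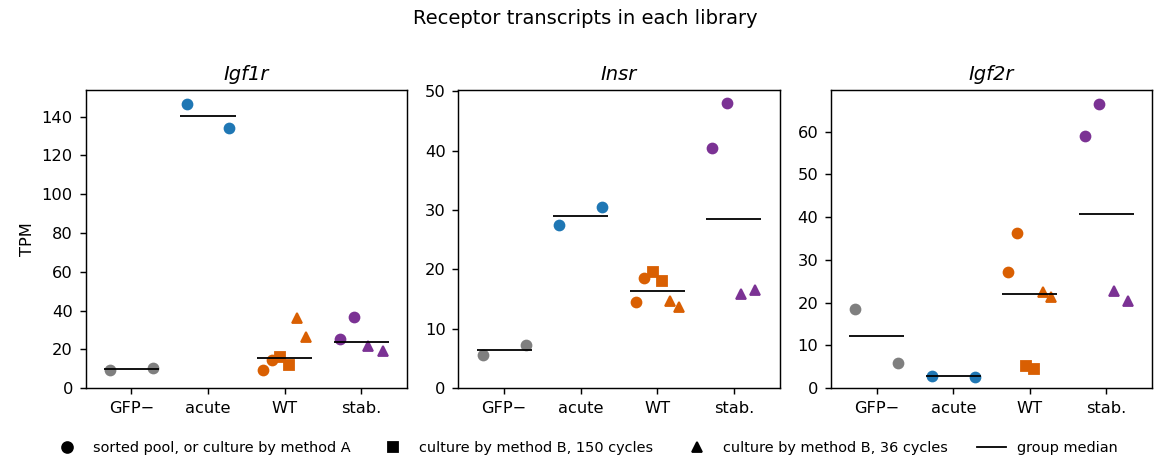
Level in TPM, on a linear axis, of the receptors Igf1r, Igf2r and Insr in every RNA-seq library by group, with the group median as a bar. Igf1r lies at 134 and 147 TPM in acutely isolated ECs and at 9.25 to 36.2 TPM in WT cultures.

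Other genes of the pathway were taken from a list of 37 genes that included the receptors, of which 34 were tested for WT cultures against acutely isolated ECs. By the call rule 3 were higher and 5 lower, beside 13.5% and 10.2% of all genes tested, with a median log2 fold change of -0.19 against 0.10 over all genes. The genes called higher were Shc1 (2.08), an adaptor that links receptors to Ras signaling, the kinase Akt1 (1.71) and Rheb (1.45), the small GTPase that activates mTOR. Called lower beside both receptors were Grb14 (-3.77), an adaptor that inhibits insulin receptor signaling, Grb2 (-1.89) and Pik3ca (-1.36), a catalytic subunit of PI3 kinase. Pik3ca was near the threshold (edgeR adjusted p = 0.0451). It overlapped in TPM, at 10.9 and 27.1 in acutely isolated ECs and 8.00 to 17.6 in WT cultures. Between ECs and GFP-negative cells 5 of 34 were higher and 3 lower, beside 8.3% and 7.56% of all genes tested. Higher were, among others, the adaptors Grb10 (2.46) and Grb14 (2.61) and the transcription factor Foxo1 (1.65), and lower were the insulin receptor substrates Irs1 (-4.60) and Irs2 (-4.92) and Htra1 (-2.16), a protease that cleaves IGF-binding proteins. None of 33 was called for stabilized against WT cultures. For stabilized cultures against acutely isolated ECs 3 of 34 were higher and 7 lower, beside 15.1% and 11% of all genes tested. The mRNA-binding proteins of Igf2 had low levels throughout, and Igf2bp1, with no count in acutely isolated ECs, was at 0.43 to 2.39 TPM in WT cultures, at least 120-fold higher, relative to library size, than the 3-count limit. Among the other binding proteins Igfbp1 had no count in the sorted cells and 16 counts over all WT wells, at least 2.77-fold higher, relative to library size, than the limit for acutely isolated ECs.

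ATAC-seq peaks, called by the authors in each library, gave a further readout around the same genes. After filtering at a fold enrichment over 2 and a −log10 q over 2, the libraries held 31779 to 98732 peaks, and the 2 acute libraries and the method A wells held fewer than the others. A peak within 1000 bases of the start site, taken for each gene as that of its coding transcript with the most counts, was found in both acute libraries for 3 of the 8 members, beside 51.7% of 21737 genes, in all 6 WT libraries for 3 members, beside 50.2%, and in both stabilized libraries for 3 members, beside 58.2%. In each case these were Igfbp3, Igfbp6 and Igfbp7.

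At the Igfbp3 start site the fold enrichment over local background was 5.10 and 5.13 in acutely isolated ECs, 5.68 to 6.45 in WT cultures and 5.82 and 5.27 in stabilized cultures. At the Igfbp7 start site it was 13.3 and 11.4, 11.5 to 13.6, and 12.7 and 12.3. For both genes the start site was thus open in acutely isolated ECs, and for Igfbp7 the ranges of acute and cultured ECs overlapped. For Igfbp6 the region counted had its summit at -978 bases from the start site used and did not reach that site. Its fold enrichment was 5.84 and 4.33 in acutely isolated ECs, where no Igfbp6 count was found, and 6.88 to 16.7 in WT cultures, without overlap. Igfbp2 had a start site peak in neither acute library, in 5 of 6 WT libraries (3.38 to 4.52) and in 1 of 2 stabilized libraries (4.86). Igfbp4 had one in 1 of 2 acute libraries, 3 of 6 WT libraries and 1 of 2 stabilized libraries. At the start sites used here Igfbp5 and Igf2 had none in any library, and Igf1 had one in 1 WT library only. Igf2 has several starts in RefSeq, and a region upstream of the one used, within 1000 bases of another, was open in both acute libraries (3.79 and 3.91), 2 of 6 WT libraries and both stabilized libraries.

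In the gene bodies and 10 kb to either side, the members had 54 open regions over all libraries, of which Igfbp7 had 20. Open in both acute and all 6 WT libraries were 8 regions (14.8%), beside 13.4% of 126224 regions genome-wide. Open in all 6 WT libraries and neither acute library were 5 (9.26%), beside 8.09%, and open in both acute libraries and no WT library were none, beside 2.93%. These shares of the members were close to the background.

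The 5 regions open only in culture were at Igfbp7 (2), Igf1 (2) and Igfbp6 (1), and all 5 were also open in both stabilized libraries. Of the Igfbp7 regions, the stronger lay in an intron 32875 bases inside the start site, at a fold enrichment of 9.39 to 11.9 in WT and 11.2 and 10.8 in stabilized cultures, and the other 53346 bases inside it at 4.02 to 5.22 in WT cultures. A further Igfbp7 intron region 49542 bases inside was open in every library, at 11.4 and 12.4 in acutely isolated ECs and 5.51 to 8.40 in WT cultures. One of the Igf1 regions, at 6.90 to 13.9, covered the start of another RefSeq transcript of the gene, and the Igfbp6 region, 6646 bases downstream of the start and beyond the gene, lay within 1000 bases of the start site of Soat2.

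The 201 bases around the summit of the stronger Igfbp7 region (chr5:77375066-77375266) are printed on the plus strand of GRCm38. Of the 2 Igfbp7 intron regions open in every culture and in neither acute library, it had the higher fold enrichment. The capitals mark the AP-1 motif, TGANTCA, where N is any base. It was present in 25.2% of the windows of this length at all regions and in 49.4% of those at regions open in all 6 WT libraries and neither acute library. The window of the other Igfbp7 region open only in culture held no AP-1 match.
Igfbp7 intron: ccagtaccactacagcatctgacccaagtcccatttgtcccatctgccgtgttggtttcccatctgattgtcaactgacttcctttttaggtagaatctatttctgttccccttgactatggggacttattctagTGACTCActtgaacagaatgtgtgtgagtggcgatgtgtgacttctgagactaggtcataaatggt

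**Figure D5:**
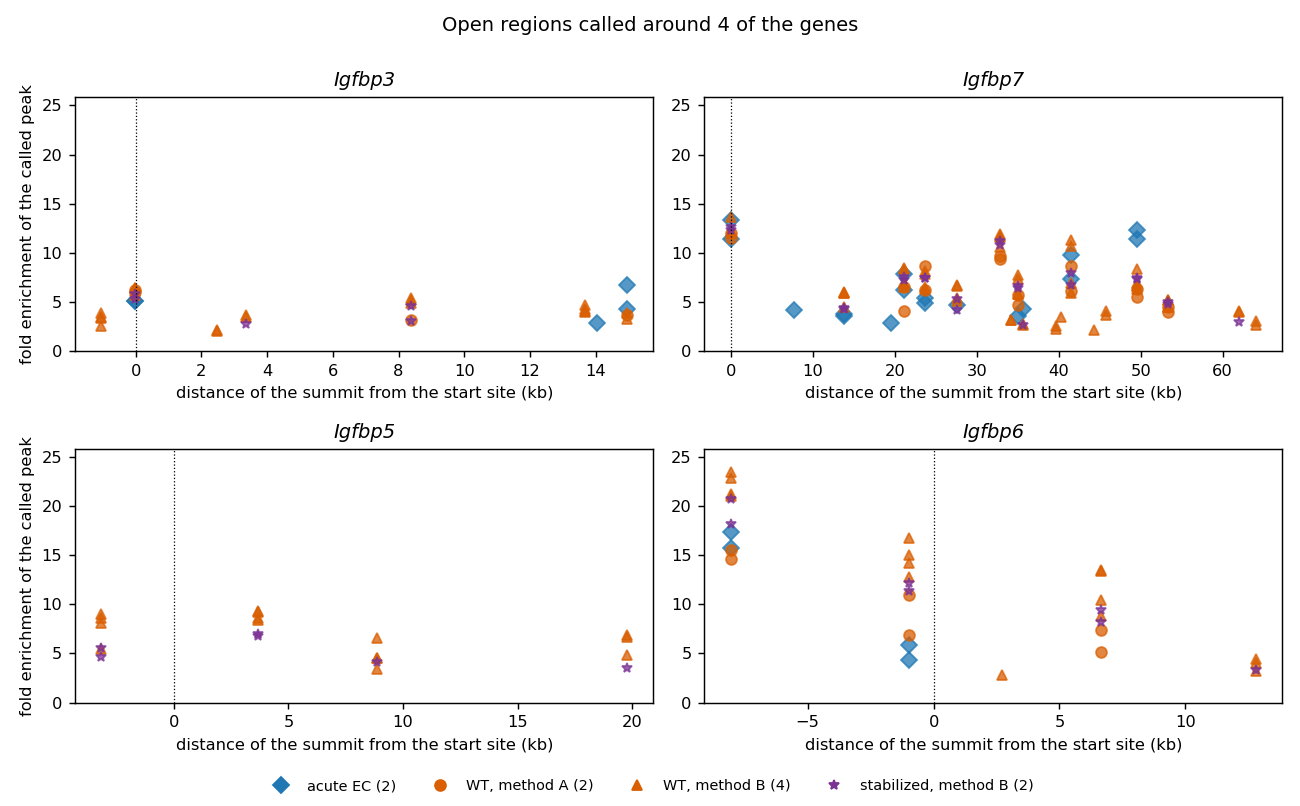
Fold enrichment of ATAC-seq peaks against distance in kb from the start site, along the direction of transcription, for Igfbp3, Igfbp7, Igfbp5 and Igfbp6, with 1 point per region and library. The Igfbp7 region at 32.9 kb has points of 9.39 to 11.9 from the WT cultures and none from acutely isolated ECs.

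Some regions were open in part of the cultures only. At Igfbp5, an intron region 3655 bases inside the start site was open in the 4 method B WT libraries (8.42 to 9.37) and both stabilized libraries, which were also made by method B, and in no acute or method A library. The acute and method A libraries held 31779 to 50395 peaks after filtering, against 79116 to 98732 in the method B libraries. Isolation method and number of peaks called can therefore not be told apart for this region. In the Igfbp3 neighborhood, a region at the start site of the adjacent gene Igfbp1 was open in both acute libraries (6.69 and 4.23), in 3 of 6 WT libraries and in neither stabilized library.

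The genes whose levels followed the members most closely were found by Pearson correlation of log2(TPM + 1) over the 14 libraries among 9061 genes, as a description. The libraries share experiments and depth. For Igfbp3 these were Entpd4 (r = 0.987), Apool (0.985) and Cebpd (0.982), a transcription factor of the C/EBP family whose median was 3.44 TPM in acutely isolated ECs and 41.8 TPM in WT cultures. For Igfbp7 they were Gas6 (0.986), a ligand of the TAM receptors, Hrct1 (0.970) and Vcam1 (0.970), the leukocyte adhesion molecule. For Igf2 they were Ptgds (0.993), which encodes the prostaglandin D synthase of leptomeninges and choroid plexus, Mark1 (0.976) and Ccdc3 (0.972).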

How the data were processed

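RNA-seq and ATAC-seq libraries of sorted and cultured brain ECs were analysed from the deposited files. The authors quantified RNA-seq reads with Salmon 0.14.0 on GENCODE M21 transcripts and deposited an estimated count and a TPM value per transcript, the TPM scaled by effective length. Cerebrum and cerebellum data of the acutely isolated cells had been combined by the authors. The separate cerebrum samples were not analysed here. ATAC-seq reads had been mapped by the authors to GRCm38 (HISAT2 2.1.0), and their MACS2 2.1.2 peaks of every single library were deposited as lists that hold a fold enrichment, a score and −log10 values of p and q. Signal outside peaks was not used.

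Counts and TPM were summed per gene over 21820 protein-coding genes, with the most abundant identifier for 27 repeated symbols, and estimated counts were rounded. Tests used edgeR 4.0.16 in R 4.3.3 (filterByExpr, TMM, glmQLFit, glmQLFTest) on all genes that passed the filter, where the study had used EBSeq. Each pair of groups was fitted on its own libraries, and each standard error was computed as the log2 fold change divided by the root of F. All 8 members passed the filter in each comparison. The procedure was first tested on simulated counts. The 3-count bounds cover counting error only, whereas the intervals of fold changes include the spread between libraries. Members, pathway and marker lists were chosen with earlier results of these data known. Named genes were the members, the receptors, Igfbp1, called genes of the pathway list and the 3 genes most like each member with a TPM of at least 5 in every library of a group. Genes named beyond this rule (Igf2bp1, Soat2, Ttr, Col1a1, Col1a2, Dcn, Pdgfra and Dpt) were chosen after their values were seen. Alternatives were DESeq2 1.42.0, library-size scaling, a length offset, no filter on low counts, no TPM minimum, summed wells, single isolation methods, a replicate block and leaving out each library. Fits with the 150-cycle wells alone, without them for stabilized cultures, and with shared replicate numbers but no block were added after seeing the data. Promoter and region sequences are those of RefSeq and GRCm38.p6, and 1 open region is not reported here.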

Additional observations from a re-analysis of the deposited data

Results flagged for a closer look

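In 30 groups of values of the members and the receptors tested for a sample far from the others, 3 stood out. All were in the ATAC-seq fold enrichment at a start site in the 6 WT cultures. Chance gives about 1 in 20 groups where samples are independent, which wells of 1 experiment are not. The start site values of Igfbp5 and Igf2 were all 0 and could not stand out. For Igfbp2 the gap was 0.749 of the range, since WT replicate 2 had no peak and the other 5 libraries had values of 3.38 to 4.52. For Igfbp7 the gap was 0.663 of the range, since replicate 5 was at 13.6 and the others at 11.5 to 12.2. For Igf1 it was 1.0, since replicate 4 alone had a peak, at a fold enrichment of 2.53.

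The difference between stabilized and WT cultures itself differed between isolation methods for 4 members, by the interaction test of edgeR on the 8 culture libraries of 36 cycles. The log2 difference in method B minus that in method A was -1.88 for Igf1 (SE 0.58, adjusted p = 0.0255), 1.90 for Igfbp2 (SE 0.41, adjusted p = 0.00518), 0.87 for Igfbp3 (SE 0.13, adjusted p = 0.000779) and 0.66 for Igfbp7 (SE 0.10, adjusted p = 0.0011). Of all 13357 genes tested, 49.6% passed this test. Each method had 2 wells of 1 experiment per genotype, so the test rests on spread between wells. The control strain also differed between the methods, so that strain and method cannot be told apart.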

How the results depend on the processing

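The tests rest on 2 acutely isolated libraries and 3 WT culture experiments, at 24284843 counts or more per library. Relative to TMM, library-size scaling moved the median log2 change of all genes from 0.10 to 0.30 in WT culture against acute isolation, from -0.06 to -0.44 in ECs against GFP-negative cells, from -0.04 to -0.12 in stabilized against WT cultures and from 0.04 to 0.16 in stabilized cultures against acute isolation.

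Members called in WT culture against acute isolation were 1 in the reported fit, 2 with method A only, 3 with the 150-cycle wells, 0 with method B of 36 cycles, 6 without the TPM minimum and 1 when any single library was left out, which was Igfbp3 except without acute replicate 2, where it was Igf2. Genes called numbered 3275 in the reported fit, 4931 with the 150-cycle wells, 5985 without the TPM minimum and 2091 with summed wells. For ECs against GFP-negative cells, DESeq2 and the fit of all 14 libraries each called 4 members in place of 2, and genes called were 4476 without the TPM minimum and 1554 with the length offset. For stabilized against WT cultures, 17 genes were called by DESeq2, 810 with method A (1 member), 175 with method B of 36 cycles and 76 with method as a covariate. For stabilized cultures against acute isolation, 6618 genes and 4 members were called without the TPM minimum, 0 members with method B of 36 cycles and 1 to 2 when a library was left out. Members with a start site peak in stabilized cultures were 3 to 5 when a library was left out.

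Values that changed sign were all of uncalled members or of Igf2r. In WT culture against acute isolation, Igf1 was -1.29 with method A, -1.85 without the 150-cycle wells and -0.23 to 8.69 when a library was left out, Igf2r was -1.17 and Igfbp7 -0.0911 with the 150-cycle wells, and Igfbp7 was -0.0566 with method B of 36 cycles. In stabilized against WT cultures, Igf1 was 2.79 with method A, 0.88 with method B of 36 cycles, 2.07 with method as a covariate, 2.53 without the 150-cycle wells and -0.79 to 0.72 when a library was left out. Igfbp2 was 0.48 and Igfbp3 0.59 with method B of 36 cycles, and Igfbp3 0.16 with the covariate. Igfbp6 was 0.45 with method A, 0.19 with the covariate and 0.27 without the 150-cycle wells. Igfbp7 was -0.38 with method A, -0.0621 with the covariate, -0.0308 with the length offset, -0.0304 with library-size scaling, -0.16 without the 150-cycle wells and -0.0761 to 0.28 when a library was left out. In stabilized cultures against acute isolation, Igf1 was -1.83 with method B of 36 cycles and -0.29 to 9.04, and Igfbp5 -4.10 to 0.36, when a library was left out. The cause of these changes was not tested.

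Replicate numbers are shared between groups in the labels. Deviations of same-numbered libraries from their group means correlated at -0.04 and 0.03 for WT culture and acute isolation, 0.07 for the sorted cells, -0.03 and 0.01 for stabilized culture and acute isolation, and 0.51, 0.49, -0.00 and 0.06 for stabilized and WT cultures. The values of 0.51 and 0.49 belong to replicates 1 and 2, which were made by method A in both genotypes. The reported fits with all wells used neither pairing by number nor a term for method. With a replicate block, 2 members were called in culture against acute isolation and 2 without the block on the same libraries, 4 members in ECs against GFP-negative cells, and 190 genes in stabilized against WT cultures, against 213 without the block. With the block, Igfbp7 was -0.043 in stabilized against WT cultures, and without it on the same libraries -0.14. On those libraries without the block, Igf1 was -1.29 in WT culture against acute isolation.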

Other observations

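Genes most like the remaining members in level over the 14 libraries were Smim20, Bcat1 and Rab30 for Igfbp2 (r = 0.970, 0.965 and 0.962), Epn2, Fam214a and Rprd1a for Igfbp4 (0.968, 0.950 and 0.944) and Plxnb1, Ndrg4 and Nsf for Igfbp5 (0.952, 0.949 and 0.946). Igfbp6 and Igf1 had no group with a TPM of at least 5 in every library and were not compared.

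Processed transcripts without a coding sequence carried part of the level of 3 members. Coding transcripts made up all of the Igfbp4 TPM in 1 acutely isolated EC library and 30.0% in the other, and 46.1% to 64.3% in WT cultures. For Igfbp5 they made up 4.35% and 0% in acutely isolated ECs and 47.0% and 49.9% in GFP-negative cells. At the levels of these genes in ECs, such shares rest on Salmon's assignment of reads among overlapping transcripts.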
